A study of Mus musculus with 18 samples.

Results

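The genes described here are those of MHC class I antigen presentation and the immunoproteasome, 10 genes chosen by name: the class I heavy chains H2-K1 and H2-D1, the light chain B2m, the peptide transporter genes Tap1 and Tap2, the loading factor Tapbp, the immunoproteasome subunits Psmb8, Psmb9 and Psmb10, and the transactivator Nlrc5. A row of the expression table was taken when its symbol was one of these names, which gave 10 of 62197 rows, of which 25177 carry a symbol. All 10 passed the filter on low values and were tested. Class I molecules carry short peptides made by the proteasome in the cytosol to the cell surface, where CD8 T cells read them. In cells exposed to interferon or microbial products, the catalytic subunits of the standard proteasome are replaced by those of the immunoproteasome, which cuts peptides better suited to class I binding, and TAP pumps these peptides into the endoplasmic reticulum, where tapasin helps load them. NLRC5 drives transcription of class I genes as its relative CIITA does for class II, and dendritic cells use the route also to present material taken up from outside.

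The study asked how squeezing the cell changes dendritic cells and whether this needs the phospholipase cPLA2, encoded by Pla2g4a. Bone marrow of mice bred onto C57BL/6, male or female, was cultured for 10 days in medium with serum and GM-CSF, a culture that also holds granulocytes and macrophages. By the study's methods the loosely attached cells, taken to be the dendritic cells, were collected, a step meant to leave granulocytes and macrophages behind. Their poly(A) RNA was sequenced in 18 libraries, 3 for each of 6 conditions. Cells labelled WT or KO for cPLA2 were taken untreated (nonconfined) or 4 h after being confined between surfaces at a height of 3 µm. Others were taken the day after a pulse of LPS, a bacterial product, at 100 ng/ml. The pulse lasted 30 minutes by the sample records and slightly less by the paper's methods. The KO is conditional, a floxed Pla2g4a allele recombined by Cre under the Itgax (CD11c) promoter, so cells of the culture that never express Itgax keep the gene, and the WT cells came from littermates or age-matched mice. The LPS cells were thus left longer than the confined cells, and no such time is given for the nonconfined cells. The libraries were made with the TruSeq Stranded mRNA and Illumina Stranded mRNA Prep Ligation kits, and which library had which kit is not given. The authors call the libraries of a condition biological replicates and state for their work in general that statistics rest on independent replicates, but do not say whether these libraries came from separate cultures or mice. If they did not, the p-values measure the spread between these libraries, which may be technical. Depth was 33027230 to 61300021 reads assigned to genes per library, with a median of 40950397. The values below are counts divided by the authors' size factor for each library, after which the totals still differ between libraries.

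The labels were checked first, against Pla2g4a and against genes of the Y chromosome. Pla2g4a gave 697, 686 and 770.4 normalized counts in the nonconfined WT libraries and 548, 542 and 533 in the nonconfined KO libraries. Under confinement it gave 1369, 1430.3 and 1321 in WT and 923, 871 and 919.5 in KO. The KO libraries were lower than the WT libraries in both conditions with no overlap, but far from 0, by -0.41 (adjusted p = 0.00019) and -0.60 (adjusted p = 3.81e-08) on the log2 scale. The LPS libraries labelled WT gave 1005, 969 and 967 and those labelled KO gave 1065, 1032 and 1028, so here the KO label did not go with less Pla2g4a RNA. Ddx3y, a Y-linked gene, stood at 3.05, 0 and 1.97 in nonconfined WT and 949, 981 and 874 in nonconfined KO. After confinement it was 0, 1.72 and 2.37 in WT and 1036, 920.2 and 948 in KO. In the libraries labelled LPS WT it was 1271, 0 and 662, and in those labelled LPS KO 2.12, 1476 and 783. Nonconfined and confined KO libraries thus held RNA of male cells and WT libraries almost none, whereas the LPS libraries split across their labels, with libraries 1 and 3 labelled WT high and library 1 labelled KO at 2.12. Xist, made by female cells, was 27953, 33681 and 30681 in nonconfined WT and 12153, 19081 and 14328 in nonconfined KO. Xist after confinement was 22734, 33482 and 29759 in WT and 16979.6, 24835 and 20600 in KO, and under LPS 26298, 27791 and 27224 labelled WT and 30960.2, 16450.2 and 21654 labelled KO. All 18 libraries held Xist, so the nonconfined and confined KO libraries, and the LPS libraries with high Ddx3y, held RNA of both sexes. In the nonconfined and confined cells the genotype and the sex of the mice cannot be told apart. For these reasons the 6 LPS libraries were averaged over their labels in the comparisons with LPS. Other LPS results, such as levels and marker and list counts, are from all 6 libraries or are given by label. Changes of the 10 genes and proteasome subunit ratios are also given without libraries 1 and 3 labelled WT and library 1 labelled KO. This choice was made on Ddx3y after the values were seen. Pla2g4a still goes against the labels in the LPS libraries that remain, so the genotype of these is in doubt too. Between LPS libraries labelled KO and WT, limma called 0 genes higher (0% of 17875 tested) and 0 lower (0%), as did edgeR and DESeq2, and 0 of the 10 members. At an unadjusted p under 0.05 the 3 tools gave 890, 812 and 831 genes, and 0 members.

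The cells were checked against cell type markers. Marker counts are to be set beside the shares of all genes tested that were called higher and lower. These were 28.2% and 28.4% for confinement in WT, 22.8% and 23.4% in KO, and 37.2% and 34.3% for LPS. Between KO and WT they were 4.78% and 4.11% without and 18.8% and 20.6% with confinement. A marker count near its share says nothing of the cell type. Of 10 dendritic cell markers, all were measured, with Cd74 the most abundant, and their summed level was 512441, 486233 and 491235 normalized counts in nonconfined WT, 590717, 569055 and 582355 in nonconfined KO, 464765, 435162 and 448457 in confined WT and 419574, 403394 and 417647 in confined KO. The sum was lower in the confined than in the nonconfined libraries of both genotypes, and 7 of 10 markers were called lower in confined WT, with Cd86 and Ccr7 called higher, and 9 of 10 lower and 0 higher in confined KO. Under LPS the sum was 697604, 612618 and 644555 labelled WT, and 616551, 683615 and 659192 labelled KO, above each nonconfined library, as were the 10 genes, with 7 of 10 markers called higher and 2 lower. Flt3 and Cd209a were low throughout, with means of 119 and 154 in nonconfined WT. Neutrophil markers, led by S100a9, summed to 241697, 246638 and 244878 in nonconfined WT and 373210, 335905 and 361226 in nonconfined KO. The sum was 155809, 148610 and 146352 in confined WT and 335617, 348407 and 332492 in confined KO. Under LPS it was 313472, 293918 and 296354 labelled WT, and 280696, 317439 and 298675 labelled KO, with 5 of 10 markers called higher than in nonconfined cells and 4 lower. Confinement came with 9 of 10 neutrophil markers lower in WT and 4 of 10 lower in KO, and between confined KO and confined WT 9 of 10 were higher in KO, 0 lower. Eosinophil markers, led by Prg2, summed to 31132, 30919 and 30844 in nonconfined WT and 75852, 70606 and 72713 in nonconfined KO. After confinement the eosinophil sum was 8934, 8379 and 8279.7 in WT and 21660.5, 21242 and 22078 in KO. In the LPS libraries it was 43969, 25589 and 35214 labelled WT, and 25523, 43976 and 35822 labelled KO, and 6 of 6 markers were called lower than in nonconfined cells. The sum was higher in KO than WT in both conditions and lower after confinement in both genotypes, and within LPS it was high in the same libraries as Ddx3y. Single eosinophil markers did not all follow the sum: 1 of 6, Siglecf, was called lower in nonconfined KO than WT and 2, Siglecf and Ccr3, in confined KO, and Ccr3 was called higher after confinement in WT.

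Mast cell and basophil markers, led by Cpa3, summed to 6902, 7151 and 6988 in nonconfined WT, 10509, 10224 and 10039 in nonconfined KO, 3577, 3446 and 3523 in confined WT and 5562, 5449 and 5627 in confined KO, with Mcpt4 under 10 normalized counts in each of the 18 libraries. T and NK cell markers, led by Cd3g, summed to 2556, 2574 and 2536, 3289, 2959 and 3201, 817, 849 and 740.3 and 1092, 1281 and 1159 in the same order, with Ncr1 and Klrb1c under 10 in each library. Both sums were lower after confinement in both genotypes and higher in KO than WT. The T and NK cell sum was nearly that of Cd3g alone. In nonconfined WT the mean of Cd3g was 2306, against 141 for Cd3d, 79.9 for Nkg7 and 22.7 for Cd3e. Macrophage markers, led by Adgre1 and with Cd163 under 10 in each library, summed to 18916, 18918 and 19305, 23054, 24549 and 24013, 17749, 17278 and 17391 and 19699.9, 18469 and 19586 in that order. Markers of plasmacytoid dendritic cells, led by Bst2, which interferon itself induces, summed to 10943, 10997 and 10627, 11856, 10207 and 11723, 11752, 11422 and 11466 and 7444, 7671 and 7268. The macrophage sum was lower after confinement in both genotypes, while the plasmacytoid sum was lower in confined KO alone among these 4 conditions. With LPS the macrophage sum was 38592, 30607 and 34059 labelled WT, and 29594, 37129 and 33942 labelled KO. The plasmacytoid sum with LPS was 23922, 27944 and 24285 labelled WT, and 26165, 23284 and 24483 labelled KO. Both sums were higher than in any nonconfined or confined library, but of 8 macrophage markers tested 3 were called higher under LPS and 5 lower, and Marco rose from a mean of 156 in nonconfined WT to 10615 under LPS labelled WT. Of 5 plasmacytoid markers 3 were called higher under LPS and 1, Siglech, lower, and the sum is nearly that of Bst2 alone, with a mean of 23459.6 ± 1929 under LPS labelled WT. After confinement 1 macrophage marker was called higher and 4 lower in WT, and 1 and 5 in KO, and of 7 mast cell and basophil markers tested 1 was higher and 5 lower in WT, and 1 and 6 in KO. Mast cell and basophil markers with LPS summed to 6907, 6637 and 6737 labelled WT, and 6475, 7083 and 7113 labelled KO, and T and NK cell markers to 527, 502 and 494 labelled WT, and 451, 571 and 560.1 labelled KO. Of the mast cell and basophil markers 1 was called higher under LPS and 6 lower, and of 4 T and NK cell markers tested 0 and 4, while the 10 genes rose. B cell markers summed to between 17.4 and 113 in any library. These marker levels differed with confinement and with genotype, and their part in the results on class I genes was not tested. In RNA of a mixed population, fewer cells of a type and less RNA per cell cannot be told apart.

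Confinement was compared with no confinement within each genotype, with a test of the difference between genotypes (the interaction). Fold changes are on the scale of log2(normalized count + 1), and a gene was called at a limma adjusted p under 0.05 over 17875 genes tested. In WT, 6 of the 10 genes were called higher after confinement, against 28.2% of all genes tested, and 3 lower, against 28.4%: the genes of the class I molecule, Tap1, Tapbp and Nlrc5 rose, whereas the 3 immunoproteasome subunits fell. The number lower was thus near the share over all genes, and Psmb9 and Psmb10 lost their call when single libraries were left out. In KO, 1 was called higher (22.8% of all genes) and 7 lower (23.4%). For the interaction, 10 of 10 were called lower in KO than in WT (15.6% of all genes) and 0 higher (10.2%). The median change of the 10 genes was 0.29 in WT, -0.59 in KO and -0.69 for the interaction, where the medians over all genes tested were -0.01, 0.01 and 0.05. Both genotypes' values are changes against their own nonconfined libraries, and the interaction uses the same 12 libraries.

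**Figure D1:**
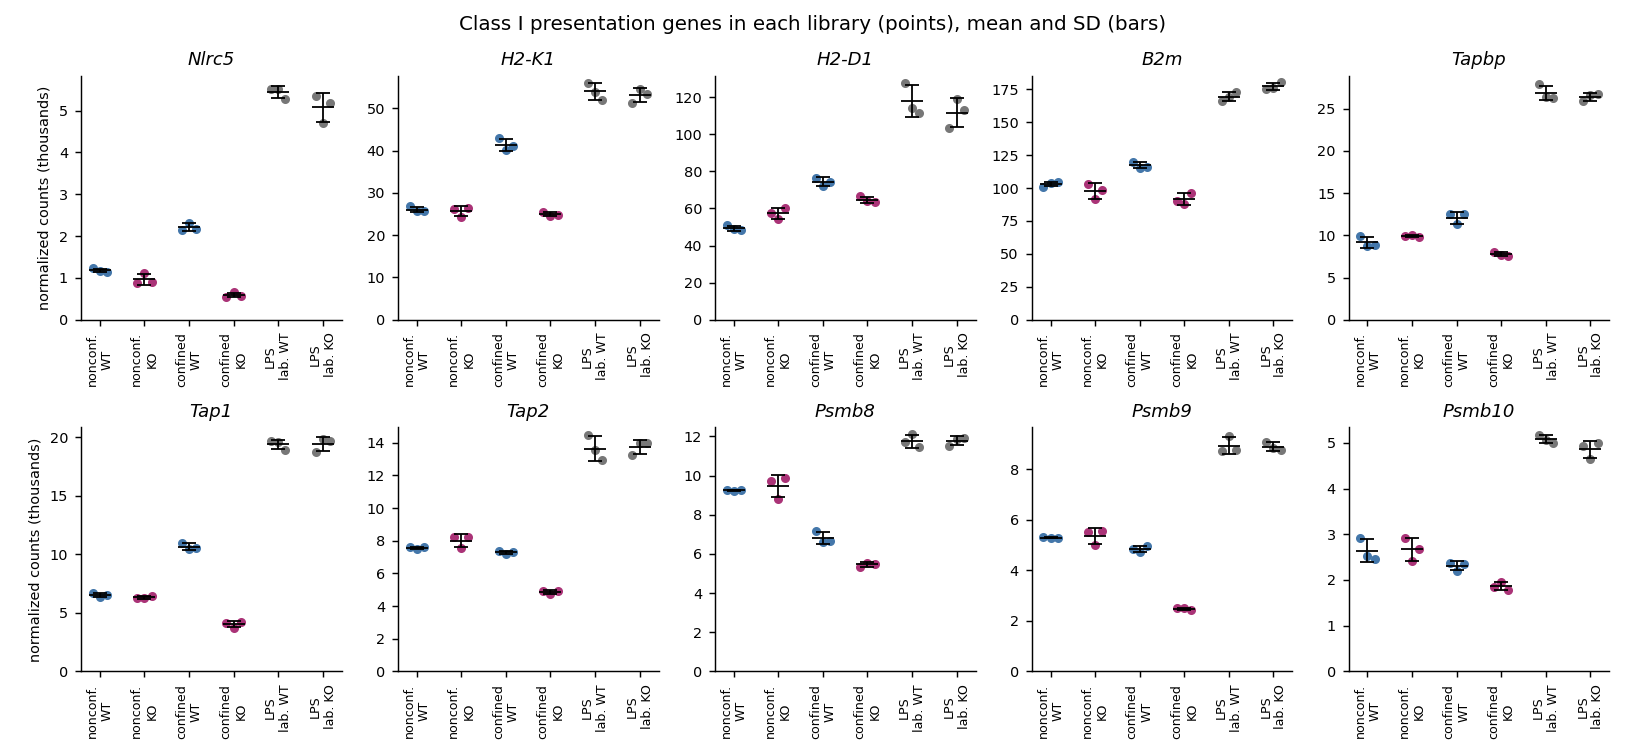
Normalized counts (vertical axis from 0) of the 10 genes in each of the 18 libraries, as points by condition, with the mean and SD as bars (n = 3 each). Confined WT lies above confined KO for each of the 10 genes, and the LPS libraries are the highest for each.

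Nlrc5, the transactivator of class I genes, gave 1229, 1166 and 1149 normalized counts in nonconfined WT and 2144, 2320.4 and 2171 in confined WT. In KO it gave 885, 1112 and 894 without and 545, 652 and 577 with confinement. The confined WT libraries all lay above the nonconfined WT libraries and the confined KO libraries all below the nonconfined KO libraries. The log2 change was 0.90 ± 0.0787 (SE, adjusted p = 2.52e-09) in WT, a rise of 1.87-fold, and -0.70 ± 0.0787 (SE, adjusted p = 2.53e-07) in KO, a fall of 1.62-fold. These opposite changes differed by -1.60 ± 0.111 (SE, adjusted p = 2.2e-10), the largest interaction among the 10 genes.

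H2-K1, a classical class I heavy chain, gave 26794, 25769.9 and 25655 normalized counts in nonconfined WT and 42938, 40175 and 41116 in confined WT. In KO it gave 26304, 24412 and 26512 without and 25502, 24625 and 24815 with confinement. The confined WT libraries stood apart above all others of these 12, and the KO libraries overlapped across conditions. The change was 0.67 ± 0.0432 (SE, adjusted p = 1.98e-11) in WT and -0.04 ± 0.0432 (SE, adjusted p = 0.449) in KO. The interaction was -0.71 ± 0.0611 (SE, adjusted p = 7.76e-09). H2-D1, the other classical heavy chain, whose row also carries the symbol H2-L, gave 50909.6, 48690.1 and 48337 in nonconfined WT and 76649, 71854 and 74476 in confined WT. The KO libraries had 57324, 54545 and 60415 without and 66512, 63843 and 63232 with confinement. Both genotypes were higher after confinement with no overlap, WT by 0.59 ± 0.0561 (SE, adjusted p = 9.64e-09) and KO by 0.17 ± 0.0561 (SE, adjusted p = 0.0177). For H2-D1 the interaction was -0.42 ± 0.0793 (SE, adjusted p = 0.000338). The KO call was lost without nonconfined KO library 2, which had 54545 and without which the change was 0.13 (adjusted p = 0.0825), and without confined KO library 1, which had 66512 (0.15, adjusted p = 0.0665). It was also lost under TMM scaling (0.12, adjusted p = 0.105), in a range of 0.0104 to 0.105 over 16 alternatives. Class I heavy chains are near-identical copies of each other, so reads of H2-K1, H2-D1 and the Q and T genes may have been assigned to one another, and these levels are uncertain to that extent.

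B2m, the light chain that every class I heavy chain needs to reach the surface, gave 101098, 103435 and 104677 normalized counts in nonconfined WT and 119806, 115524 and 116109 in confined WT. KO gave 103176, 91321 and 98459.7 nonconfined and 89768, 87782 and 96565 confined. Confined WT lay just above nonconfined WT, and the KO conditions overlapped. In WT the change was 0.18 ± 0.0468 (SE, adjusted p = 0.00195), a rise of 1.14-fold, but it was -0.04 when each library was scaled to the same total. In KO it was -0.10 ± 0.0468 (SE, adjusted p = 0.104), below the threshold, and passed it as a fall without nonconfined KO library 2, which had 91321 (-0.14, adjusted p = 0.0154), and without confined KO library 3, which had 96565 (-0.14, adjusted p = 0.0358). B2m also passed as a fall in KO under the same total (-0.13, adjusted p = 0.0148), under TMM (-0.14, adjusted p = 0.0417) and in edgeR (-0.11, adjusted p = 0.0452), in a range of 0.0148 to 0.395 over 16 alternatives. The interaction of -0.28 ± 0.0661 (SE, adjusted p = 0.00298) was not called under the same total (-0.09, adjusted p = 0.247, the highest of 22 alternatives, with 2.78e-05 the lowest).

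Among the genes that bring peptides to the class I molecule, Tap1, a subunit of the TAP transporter, gave 6659, 6341 and 6520.1 normalized counts in nonconfined WT and 10994, 10421 and 10566 in confined WT. Values in KO were 6260.4, 6251 and 6475 without and 4115, 3715 and 4184 with confinement. As for Nlrc5, the WT libraries were all higher and the KO libraries all lower after confinement, at 0.71 ± 0.0449 (SE, adjusted p = 1.29e-11) and -0.66 ± 0.0449 (SE, adjusted p = 1.1e-10). The difference between genotypes was -1.37 ± 0.0636 (SE, adjusted p = 2.12e-13). Its partner subunit Tap2 gave 7609.9, 7496 and 7587 in nonconfined WT and 7392, 7169.6 and 7287 in confined WT. In KO it gave 8232, 7572 and 8225 without and 4914, 4711 and 4922 with confinement. Tap2 in confined WT lay a little below nonconfined WT in each library, at -0.05 ± 0.045 (SE, adjusted p = 0.319), which did not pass the threshold except under the same total (-0.28, adjusted p = 2.23e-06, in a range up to 0.64 over 16 alternatives). In KO the fall was clear of the spread, -0.72 ± 0.045 (SE, adjusted p = 2.8e-11), and the interaction was -0.67 ± 0.0637 (SE, adjusted p = 3.89e-08). Tapbp, which encodes tapasin, gave 9958, 8791 and 8857 and 12509.8, 11295 and 12475 in nonconfined and confined WT. The KO libraries had 9957, 10039 and 9808 without and 8054, 7690.4 and 7591 with confinement. Its libraries were higher in WT, by 0.39 ± 0.0495 (SE, adjusted p = 6.15e-07), and lower in KO, at -0.35 ± 0.0495 (SE, adjusted p = 5.1e-06), without overlap. Tapbp had an interaction of -0.75 ± 0.07 (SE, adjusted p = 2.92e-08). The pair of TAP genes thus took different courses in confined WT cells.

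In WT the immunoproteasome subunits were lower after confinement, whereas the heavy chains were higher. The number lower, 3 of 10 genes, was near the share over all genes (28.4%). Psmb8, which replaces Psmb5, gave 9266, 9213 and 9269.7 normalized counts in nonconfined WT and 7153, 6625 and 6634 in confined WT. KO gave 9729, 8816 and 9857 nonconfined and 5328, 5549 and 5496 confined. All confined libraries lay below all nonconfined libraries and those of KO below those of WT. The changes were -0.44 ± 0.0449 (SE, adjusted p = 2.64e-08) in WT and -0.79 ± 0.0449 (SE, adjusted p = 6.24e-12) in KO. Psmb8 had an interaction of -0.35 ± 0.0635 (SE, adjusted p = 0.000243). Psmb9, which replaces Psmb6, gave 5310.3, 5275 and 5269 and 4841, 4722 and 4944 in nonconfined and confined WT. Values in KO were 5525, 4991 and 5560 without and 2506, 2496 and 2438 with confinement. The WT libraries were a little lower after confinement, at -0.13 ± 0.0442 (SE, adjusted p = 0.0176). The KO libraries were lower by 2.16-fold, -1.11 ± 0.0442 (SE, adjusted p = 2.08e-14), the largest fall in KO among the 10 genes. For Psmb9 the interaction was -0.98 ± 0.0626 (SE, adjusted p = 5.41e-11). The WT call on Psmb9 was lost without confined WT library 2, which had 4722 (-0.11, adjusted p = 0.0702), and in edgeR (-0.10, adjusted p = 0.0677), in a range of 7.76e-07 to 0.0702 over 16 alternatives. Psmb10, which replaces Psmb7, gave 2928, 2534 and 2467 and 2376, 2196 and 2350.1 in WT. In KO it gave 2911, 2418 and 2677 without and 1851, 1957 and 1789.8 with confinement. Confined libraries were lower in both genotypes, at -0.19 ± 0.0667 (SE, adjusted p = 0.018) in WT and -0.51 ± 0.0667 (SE, adjusted p = 1.87e-06) in KO. For Psmb10 the interaction was -0.32 ± 0.0943 (SE, adjusted p = 0.015). The WT call on Psmb10 was lost without nonconfined WT library 1, which had 2928 (-0.12, adjusted p = 0.152), or confined WT library 2, which had 2196 (-0.16, adjusted p = 0.0858), in a range of 1.13e-05 to 0.152 over 16 alternatives. Its interaction was lost without nonconfined WT library 3, which had 2467 (-0.27, adjusted p = 0.0516), and under the same total (-0.13, adjusted p = 0.277), in a range of 0.00244 to 0.277 over 22 alternatives.

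**Figure D2:**
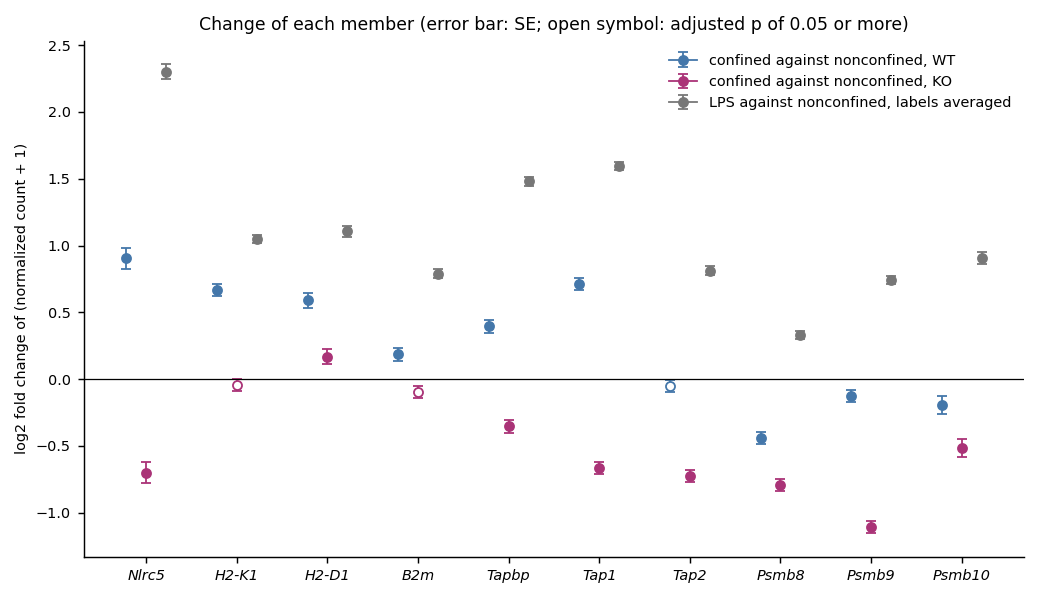
Log2 fold change of (normalized count + 1) of each gene against the nonconfined libraries, for confinement in WT and in KO and for LPS with both labels averaged; points are estimates, bars are SE and open points have an adjusted p of 0.05 or more. At equal library totals, B2m in confined WT and Psmb8 under LPS change sign.

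A ratio of an immunoproteasome subunit to the standard subunit it replaces, taken within a library, hardly depends on how libraries are scaled. The standard genes Psmb5, Psmb6 and Psmb7 were called higher after confinement in 3 of 3 cases in WT and in 2 of 3 in KO, and higher under LPS in 3 of 3. Psmb6 rose from a mean of 6677 ± 197 to 14533 ± 376 in WT and from 6839.6 ± 327 to 10622 ± 303 in KO (SD, n = 3). The log2 ratio of Psmb9 to Psmb6 was -0.38, -0.32 and -0.32 in nonconfined WT and -1.63, -1.60 and -1.53 in confined WT. In KO it was -0.35, -0.37 and -0.34 nonconfined and -2.04, -2.11 and -2.15 confined. It was lower in each confined library than in each nonconfined one, at -1.25 in WT and -1.75 in KO. For Psmb8 to Psmb5 the ratio was 1.48, 1.42 and 1.47 in nonconfined WT, 0.61, 0.63 and 0.59 in confined WT, 1.42, 1.54 and 1.40 in nonconfined KO and 0.24, 0.21 and 0.21 in confined KO, differences of -0.85 and -1.24. For Psmb10 to Psmb7 it was -0.43, -0.67 and -0.76 in nonconfined WT, -1.01, -1.07 and -1.07 in confined WT, -0.49, -0.66 and -0.65 in nonconfined KO and -1.14, -1.07 and -1.23 in confined KO, differences of -0.43 and -0.54. The 3 ratios were lower in each confined library than in each nonconfined library of the same genotype. For each of these 6 differences the exact two-sided permutation p was 0.1, the smallest that 3 against 3 libraries allow, and 0.141 after adjustment over 24 tests, so none could pass the threshold. Between confined KO and confined WT the differences were -0.39 and -0.51 for Psmb8 and Psmb9 (exact p = 0.1 each) with no overlap, and -0.10 for Psmb10 (exact p = 0.3), where the libraries overlapped.

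**Figure D3:**
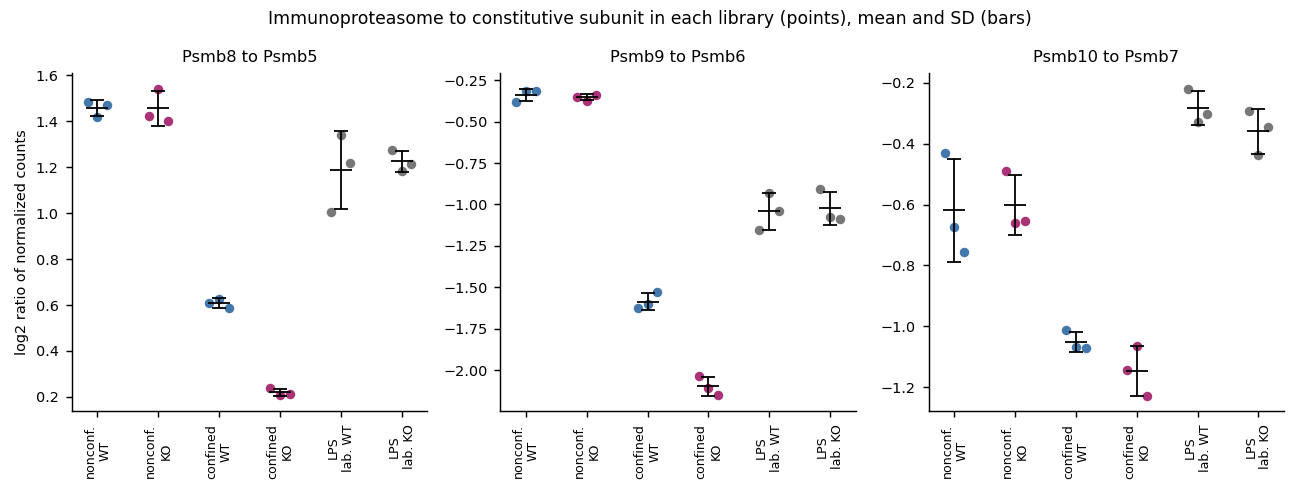
Log2 ratio of normalized counts of each immunoproteasome subunit to the standard subunit it replaces, in each library (points), with mean and SD as bars (n = 3); axes do not start at 0. Each ratio is lower in all confined libraries than in all nonconfined ones, and under LPS the ratio of Psmb9 to Psmb6 is lower and that of Psmb10 to Psmb7 higher on average than in nonconfined cells.

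KO and WT were also compared directly, to ask what the genotype label went with before and after confinement. Without confinement, 1 of the 10 genes was called higher in KO (4.78% of all genes tested), H2-D1 at 0.22 ± 0.0561 (SE, adjusted p = 0.0179), and 1 lower (4.11%), Nlrc5 at -0.30 ± 0.0787 (SE, adjusted p = 0.0201), and the other genes differed by -0.08 (B2m) to 0.11 (Tapbp). H2-D1 was no longer called without nonconfined WT library 2, which had 48690 (0.21, adjusted p = 0.0702), WT library 3, which had 48337 (0.20, adjusted p = 0.0796), or without KO library 1, which had 57324 (0.22, adjusted p = 0.0581), or KO library 3, which had 60415 (0.18, adjusted p = 0.105), in a range of 0.00241 to 0.105 over 16 alternatives. Nlrc5 was no longer called without nonconfined WT library 1, which had 1229 (-0.27, adjusted p = 0.0836), WT library 2, which had 1166 (-0.31, adjusted p = 0.0551), or without KO library 1, which had 885 (-0.24, adjusted p = 0.122), or KO library 3, which had 894 (-0.25, adjusted p = 0.111), in a range of 0.000792 to 0.122 over 16 alternatives. Tapbp was called higher without nonconfined WT library 1, which had 9958 (0.17, adjusted p = 0.0452, the lowest of 16 alternatives, with 0.48 the highest). After confinement, 10 of 10 were lower in KO than in WT (20.6% of all genes were called lower) and 0 higher (18.8%), with each confined KO library below each confined WT library. The differences ran from -0.20 for H2-D1 (adjusted p = 0.00613) to -1.91 for Nlrc5 (adjusted p = 1.56e-14), which was 3.75-fold lower. In between were -1.41 for Tap1, -0.96 for Psmb9, -0.73 for H2-K1, -0.64 for Tapbp, -0.59 for Tap2, -0.36 for B2m, -0.32 for Psmb8 and -0.31 for Psmb10. At equal library totals, H2-D1 (-0.05, adjusted p = 0.424) and Psmb10 (-0.15, adjusted p = 0.0612) were no longer called, each the highest p of 16 alternatives, with 0.000647 and 6.39e-05 the lowest.

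LPS was compared with no confinement over 6 libraries each, both labels averaged, as the stimulus known to mature dendritic cells. Nlrc5 went from 885 to 1229 (median 1131) over the 6 nonconfined libraries and from 4695 to 5526 (median 5310.5) over the 6 LPS libraries, Tap1 from 6251 to 6659 (median 6408) over the 6 nonconfined libraries and from 18721 to 19816 (median 19634) over the 6 LPS libraries, and Tapbp from 8791 to 10039 (median 9882) over the 6 nonconfined libraries and from 25919 to 27894 (median 26552) over the 6 LPS libraries. None of these ranges overlapped, and the log2 changes were 2.30 ± 0.0557 (SE, adjusted p = 1.93e-19) for Nlrc5, 1.60 ± 0.0318 (SE, adjusted p = 6e-21) for Tap1 and 1.48 ± 0.035 (SE, adjusted p = 1.31e-19) for Tapbp, rises of 4.93-fold, 3.02-fold and 2.79-fold. H2-K1 went from 24412 to 26794 (median 26037) over the 6 nonconfined libraries and from 51357 to 56122 (median 53629) over the 6 LPS libraries, H2-D1 from 48337 to 60415 (median 52728) over the 6 nonconfined libraries and from 103305 to 127526 (median 113490) over the 6 LPS libraries, and B2m from 91321 to 104677 (median 102137) over the 6 nonconfined libraries and from 166251 to 180508 (median 174073) over the 6 LPS libraries. These rose by 1.05, 1.11 and 0.79 on the log2 scale, again with no overlap. The smallest change was that of Psmb8, from 8816 to 9857 (median 9268) over the 6 nonconfined libraries and from 11459 to 12117 (median 11794) over the 6 LPS libraries, a rise of 0.33 (adjusted p = 4.85e-09) that turned to -0.17 when each library was scaled to the same total. Psmb9 went from 4991 to 5560 (median 5293) over the 6 nonconfined libraries and from 8708 to 9304 (median 8805) over the 6 LPS libraries, Psmb10 from 2418 to 2928 (median 2605) over the 6 nonconfined libraries and from 4655 to 5169.5 (median 4996) over the 6 LPS libraries, and Tap2 from 7496 to 8232 (median 7599) over the 6 nonconfined libraries and from 12932 to 14445 (median 13748) over the 6 LPS libraries. These 3 rose, with no overlap, by 0.74, 0.91 and 0.81. In all, 10 of 10 genes were called higher (37.2% of all genes tested) and 0 lower (34.3%), with a median change of 0.98 where the median over all genes was 0.02.

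Subunit ratios under LPS did not move together. The log2 ratio of Psmb9 to Psmb6 had a lowest, median and highest value of -0.38, -0.34 and -0.32 over the nonconfined and -1.15, -1.06 and -0.91 over the LPS libraries. That of Psmb8 to Psmb5 had 1.40, 1.45 and 1.54, and under LPS 1.01, 1.22 and 1.34. For Psmb10 to Psmb7 these were -0.76, -0.66 and -0.43, and -0.44, -0.31 and -0.22 under LPS. Psmb9 to Psmb6 fell by 0.69 and Psmb8 to Psmb5 by 0.25 on the log2 scale, each with no overlap between 6 and 6 libraries (exact p = 0.00216, adjusted p = 0.026), as Psmb6 rose by 1.43 and Psmb5 by 0.58. Psmb10 to Psmb7 rose by 0.29 (exact p = 0.00433, adjusted p = 0.0317), with overlapping libraries. Without the 3 LPS libraries set aside by Ddx3y these differences were -0.69 for Psmb9 and -0.21 for Psmb8 (exact p = 0.0119 each) and 0.24 for Psmb10 (exact p = 0.0476). Libraries labelled WT and KO under LPS were alike in Ddx3y as 2 with 1 (0 and 2.12), 3 with 3 (662 and 783) and 1 with 2 (1271 and 1476). By chi-square over genes per degree of freedom, where lower is more alike, these pairs gave 5.45, 6.59 and 13.67. LPS pairs under the same label gave 10.64 to 48.63. The 6 libraries may thus stand for fewer cultures, which was not tested. The exact p-values, and the limma p-values of comparisons with LPS, count libraries. Each ratio was lower in the confined than in the LPS libraries with no overlap, by differences of -0.60, -0.55 and -0.73 for Psmb8, Psmb9 and Psmb10 in WT and -0.99, -1.06 and -0.83 in KO (exact p = 0.0119 each, adjusted p = 0.0317). Without the libraries set aside they were -0.64, -0.55 and -0.68 in WT and -1.03, -1.07 and -0.78 in KO, where the exact p of 0.1 is the smallest that 3 against 3 allow. Against LPS, confined WT had 10 of 10 members lower (29.8% of all genes) and 0 higher (24.5%), from -0.37 for H2-K1 to -1.25 for Nlrc5. Confined KO also had 10 of 10 lower (32.5%) and 0 higher (30.3%), from -0.83 for H2-D1 to -3.15 for Nlrc5, an 8.89-fold difference. The LPS cells were taken the day after the pulse and the confined cells 4 h after confinement, so these are differences between unlike times. Without the 3 LPS libraries whose Ddx3y went against their label, the counts for LPS against nonconfined, confined WT against LPS and confined KO against LPS were the same, and the largest shift of any member's log2 change was 0.03. Comparisons that use the nonconfined libraries share them as controls, so their changes are not independent.

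The 6 conditions were also ordered by mean level. For Nlrc5, Tap1, H2-K1, B2m and Tapbp, confined KO was lowest, the nonconfined conditions next, then confined WT, and LPS highest. Neighbours overlapped between nonconfined WT and KO for Tap1, H2-K1, B2m and Tapbp, and between confined KO and nonconfined KO for H2-K1 and B2m. For Tap2, Psmb8, Psmb9 and Psmb10, confined KO was lowest and confined WT next, both below the overlapping nonconfined conditions, with LPS highest. H2-D1 alone had nonconfined WT lowest, then nonconfined KO, confined KO and confined WT, each step with no overlap. The LPS labels overlapped for 9 of the 10 genes, and for B2m the 3 libraries labelled KO lay above the 3 labelled WT, a difference that was not called.

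Where each library was scaled to the same total in place of the authors' size factors, the median change over all genes moved to -0.23 for confinement in WT, -0.02 in KO, 0.24 for the interaction, 0.19 for confined KO against WT, -0.46 for LPS, and 0.27 and 0.46 for confined WT and KO against LPS. The share of called genes that were higher moved with it, from 49.8% to 32.7% for confinement in WT, from 39.5% to 70.7% for the interaction, from 53.8% to 42% for nonconfined KO against WT, from 47.7% to 69.7% for confined KO against WT, from 52% to 26.4% for LPS, and from 45.2% to 75% and from 48.2% to 77.2% for confined WT and KO against LPS. Members called higher and lower were then 5 (20% of all genes tested) and 4 (41.3%) for confinement in WT, 1 (20.8%) and 8 (25.9%) in KO, and 0 (26.5%) and 8 (11%) for the interaction. They were 0 (33.6%) and 8 (14.6%) for confined KO against WT, and 9 (20.4%) and 1 (56.8%) for LPS, so in WT the number lower was near the share over all genes. Relative to the median of all genes under that scaling, B2m was at 0.19 in confined WT and Psmb8 at 0.30 under LPS.

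Other genes of the pathway were taken from lists made with earlier results of these data known, and those named are among the most abundant of each. List counts are to be set beside the shares of all genes called higher and lower. These were 28.2% and 28.4% for confinement in WT and 22.8% and 23.4% in KO. They were 10.2% and 15.6% for the interaction and 37.2% and 34.3% under LPS. Under the same total they were 20% and 41.3%, 20.8% and 25.9%, 26.5% and 11%, and 20.4% and 56.8%, in that order. A count near its share is no trait of a list. Of 14 other class I and class I-like genes tested, 6 were called higher and 6 lower after confinement in WT, 0 and 6 in KO, 0 and 8 for the interaction, and 11 and 2 under LPS. Under the same total these were 4 and 7 in WT, 0 and 8 in KO, 1 and 6 for the interaction, and 11 and 2 under LPS. H2-Q4, of the Q family, gave 2583, 2422 and 2472 in nonconfined WT and 5455, 5066 and 5058 in confined WT, with no overlap, and 2395, 2189 and 2621 and 2298, 2181 and 2227 in KO, where libraries overlapped. Its changes were 1.06 (adjusted p = 2.27e-12) and -0.10 (adjusted p = 0.187). The row shared by H2-T10, H2-T22 and H2-T9 rose in WT by 0.67 and fell by 0.77 in KO, as Nlrc5 and Tap1 did, with adjusted p of 5.44e-08 and 1.23e-08. H2-T23, which encodes Qa-1, instead fell in both, from 10638 ± 521 to 9172 ± 256 in WT and from 12415 ± 622 to 7216 ± 378 in KO (SD, n = 3), at -0.21 (adjusted p = 0.000829) and -0.78 (adjusted p = 3.05e-11). H2-M2 also fell in both, at -0.77 (adjusted p = 1.54e-06) and -1.26 (adjusted p = 2.4e-09), and rose the most of these 4 under LPS, by 2.35.

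Of 9 further genes of peptide loading and trimming, 2 were higher and 6 lower after confinement in WT, 1 and 7 in KO, and 5 and 2 under LPS, where under the same total 1 was higher and 7 lower. Calreticulin (Calr) gave means of 61614 ± 1262 and 45666 ± 1674 in nonconfined and confined WT and 63099 ± 946 and 43889.9 ± 2001 in KO, changes of -0.43 (adjusted p = 3.24e-07) and -0.52 (adjusted p = 3.91e-08) with an interaction of -0.09 (adjusted p = 0.402). ERp57 (Pdia3), a partner of tapasin, fell alike, at -0.43 and -0.44. The chaperone Hspa5 was at 0.05 in WT (adjusted p = 0.493) and fell by 0.64 in KO, with an interaction of -0.69 (adjusted p = 3.66e-06), and calnexin (Canx) was at -0.19 in WT and -0.12 in KO. Of 11 standard 20S subunits that are not catalytic, 6 were higher and 0 lower after confinement in WT, 2 and 1 in KO, and 10 and 0 under LPS. Under the same total these were 3 higher and 5 lower in WT, 2 and 3 in KO, and 5 and 5 under LPS, so their direction depends on the scaling. Psma6 rose in WT by 0.49 (adjusted p = 5.03e-08) against 0.04 (adjusted p = 0.531) in KO, and Psmb1 was at -0.03 and -0.14. Of 9 activator and assembly genes, 2 were higher and 5 lower in WT, and 0 and 6 in KO. The PA28 subunit Psme2, which opens the proteasome gate, rose from 3346 ± 128 to 4161 ± 139.9 in WT and fell from 3401 ± 136 to 2444 ± 221 in KO (SD, n = 3), at 0.31 (adjusted p = 8.39e-05) and -0.48 (adjusted p = 7e-07). Its partner Psme1 was at -0.10 (adjusted p = 0.0762) in WT and -0.52 (adjusted p = 1.39e-08) in KO. POMP (Pomp), which assembles immunoproteasomes, was at -0.00 and -0.03, below the threshold in both.

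Of 18 transcription factors of class I genes, 14 were higher and 1 lower after confinement in WT (10 and 3 under the same total). In KO 3 were higher (22.8% of all genes tested) and 7 lower (23.4%). For the interaction these were 0 and 11 (1 and 9 under the same total), and under LPS 15 and 2 (10 and 4 under the same total). Stat2 was at 1.26 (adjusted p = 8.18e-16) in WT and -0.49 (adjusted p = 1.23e-08) in KO, while the NF-kB gene Nfkb1 rose in both, by 2.10 and 0.48, with an interaction of -1.62 (adjusted p = 1.5e-15). Ciita, the class II counterpart of Nlrc5, fell in both, at -1.03 (adjusted p = 8.68e-11) and -1.01 (adjusted p = 2.73e-10), with an interaction of 0.02 (adjusted p = 0.935). Nlrc5 and Ciita thus moved in opposite directions in confined WT cells. Among 6 class II genes, 0 were higher and 4 lower after confinement in WT, 0 and 6 in KO, and 4 and 2 under LPS (0 and 5 under the same total). Cd74 fell by 0.20 in WT and 0.47 in KO, and H2-Ab1, H2-Aa and H2-Eb1 were at -0.23, -0.09 and 0.05 in WT and -0.58, -0.51 and -0.46 in KO. Of 10 cross-presentation genes, 4 were higher and 4 lower in WT, 1 and 6 in KO, and 7 and 2 under LPS (3 and 5 under the same total). Cybb, of the phagosomal oxidase, rose in WT by 0.64 and under LPS by 2.21, and Sec61a1 fell by 0.31 in WT. Of 5 interferon genes, Ifnb1 alone passed the filter, at 3.05, 5.12 and 5.9 in nonconfined WT, 105, 92.6 and 103 in confined WT, 0, 1.86 and 3.88 in nonconfined KO and 11.9, 6.4 and 6.38 in confined KO. It was far higher in confined WT than in the other 3 conditions, with changes of 4.19 (adjusted p = 2.3e-08) in WT and 1.88 (adjusted p = 0.000904) in KO and an interaction of -2.30 (adjusted p = 0.00594), and reached a mean of 156 ± 10.9 under LPS labelled WT. Ifng was at 0 in each nonconfined and confined library.

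The genes whose condition means were most like those of the 10 genes together were sought among 3869 others with at least a 2-fold range, by Pearson's r over the 6 condition means, a description with few points that share libraries. Highest were Sp110, Zbp1, Csrp1, Poglut1 and Pnp, with r of 0.999 each. Zbp1, a nucleic acid sensor, had means of 2557 and 3678 in nonconfined and confined WT, 2452 and 1250 in nonconfined and confined KO, and 15045 and 15446 under LPS labelled WT and KO. For Nlrc5 alone they were Tent4a (0.999), Gbp6 (0.999), Ms4a4c, Herc6 and H2-Q9 (0.998 each), of which H2-Q9 is itself a class I gene. Within the 10 genes, r with Nlrc5 was highest for Tap1 (0.997) and lowest for Psmb8 (0.741).

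Levels of different genes were compared per kilobase of exon in the annotation. The length was the union of all annotated exons of a gene, such as 3414 bases for Psmb8, 6007 for Tap1 and 4766 for Tap2. A union can be longer than the RNA that was measured, so the order of genes below depends on these lengths. Which transcripts were present was not tested. In nonconfined WT, B2m stood at 48941 ± 863 normalized counts per kilobase (SD, n = 3), H2-D1 at 16481 ± 466 and H2-K1 at 8186 ± 197. By this measure the light chain was the most abundant of the 10. Psmb8 stood at 2709 ± 9.31, Tapbp at 2087 ± 149, Tap2 at 1587 ± 12.6, Psmb10 at 1526 ± 144, Psmb9 at 1391 ± 5.86 and Tap1 at 1083 ± 26.6. Nlrc5 was lowest, at 139 ± 4.99. With these lengths Tap1 was below Tap2 in nonconfined WT and above it in confined WT, at 1775 ± 49.6 against 1528 ± 23.4. In confined KO Tap1 was 667 ± 42.1 against 1017 ± 25.1. Under LPS labelled WT it was 3231 ± 66.8 against 2862 ± 159.7.

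By position, 7 of the 10 genes lie within 1348022 bases of chromosome 17, from Tapbp to H2-D1, and 4 of them, Psmb9, Tap1, Psmb8 and Tap2, within 34334 bases (chr17:34400962-34435295, GRCm39). Psmb9 is on the minus strand and the other 3 on the plus strand, so Psmb9 and Tap1 point away from each other, with 176 bases between their rows. Tapbp is at chr17:34138452-34148265, H2-K1 at chr17:34214987-34219321, H2-D1 at chr17:35481469-35486473, B2m at chr2:121978166-121983564, and Psmb10 and Nlrc5 at chr8:106662360-106665024 and chr8:95199391-95253900. Divergent though neighbouring, Tap1 and Psmb9 parted in confined cells: the log2 ratio of Tap1 to Psmb9 was 0.33, 0.27 and 0.31 in nonconfined WT and 1.18, 1.14 and 1.10 in confined WT. It was 0.18, 0.32 and 0.22 in nonconfined KO, 0.72, 0.57 and 0.78 in confined KO and 1.18, 1.07 and 1.11 under LPS labelled WT. The ratio was higher in each confined or LPS library than in each nonconfined one, a description with no test. Rows that overlap the 10 genes were low, the highest mean being 158 normalized counts for an unnamed row over H2-D1.

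**Figure D4:**
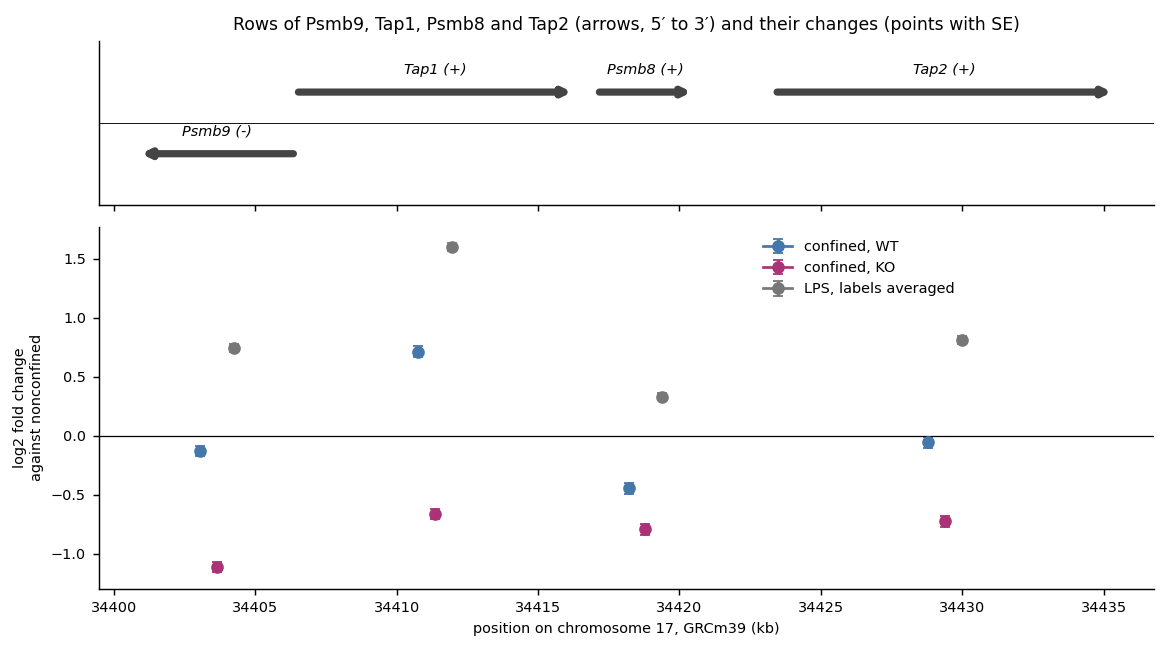
Upper panel, the rows of Psmb9, Tap1, Psmb8 and Tap2 on chromosome 17 (GRCm39, kilobases) as arrows in the direction of transcription; lower panel, their log2 fold changes against nonconfined cells with SE, at the middle of each row. Tap1 rises in confined WT while Psmb9 and Psmb8 fall, and the 4 genes fall in confined KO; at equal library totals Psmb8 falls under LPS.

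Sequence before the gene start was taken from RefSeq promoters placed on GRCm39, which had an entry for 8 of the 10 genes; Tap2 and Nlrc5 had none. Letters of known class I promoter elements were searched in both strands of the 250 bases before each start, and among 32841 promoters. Forms of the letters were added after the sequences were seen. The core of the interferon-stimulated response element, GAANNGAAA, was in 6.31% of all promoters and in 2 of the 8, its other form GAAANNGAA in 7.13% and in 1, the gamma-activated sequence TTCNNNGAA in 7.02% and in 1 (Psmb8), and a part of the NF-kB element, GGGNNTTCC, in 4.98% and in 2 (H2-K1 and H2-D1). The X2 half-site TGACG was in 17.8% and in 5, and the Y box core CCAAT in 33.9% and in 6. The windows of Tap1 and Psmb9 are nearly the same bases on opposite strands, so both counts include 1 site that these neighbours share. The promoters of H2-K1 and H2-D1 are near-identical copies over long stretches, so they are not separate cases in the counts above or in the next. TGACG followed on the other strand by CCAAT, with 20 bases between, was in 30 of 32841 promoters (0.0913%) and in 3 of the 8, H2-K1, H2-D1 and B2m. NLRC5 is known to act at such a spaced set of boxes. Such matches are a description of letters. No spacing other than that of 20 bases, which these 3 promoters have, was counted. The share over all promoters is thus no test of it. Shown are these 3 promoters, and the interval from the start of Psmb9 to that of Tap1 because those neighbours parted, each 5′ to 3′ with response element, X2 and Y letters in capitals (ATTGG is CCAAT and TTTCACTTC is GAANNGAAA on the other strand). H2-K1 is chr17:34219322-34219571 on the minus strand, H2-D1 chr17:35481820-35482069, B2m chr2:121977918-121978167 and the interval chr17:34406305-34406529 on the plus strand. Some transcripts of the GENCODE annotation start further upstream, so the H2-D1 sequence and the interval each lie within an exon there and the B2m sequence overlaps one in part, and H2-K1 overlaps an exon of a gene on the other strand.
H2-K1: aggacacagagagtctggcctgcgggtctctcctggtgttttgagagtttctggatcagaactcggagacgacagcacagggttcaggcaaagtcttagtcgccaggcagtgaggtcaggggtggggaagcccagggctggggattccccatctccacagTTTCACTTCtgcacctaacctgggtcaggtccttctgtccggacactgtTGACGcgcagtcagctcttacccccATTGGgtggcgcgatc
H2-D1: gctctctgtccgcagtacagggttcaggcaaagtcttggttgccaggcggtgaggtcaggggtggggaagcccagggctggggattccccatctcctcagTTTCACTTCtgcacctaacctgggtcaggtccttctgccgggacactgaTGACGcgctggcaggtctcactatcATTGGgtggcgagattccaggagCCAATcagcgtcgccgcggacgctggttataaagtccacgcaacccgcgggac
B2m: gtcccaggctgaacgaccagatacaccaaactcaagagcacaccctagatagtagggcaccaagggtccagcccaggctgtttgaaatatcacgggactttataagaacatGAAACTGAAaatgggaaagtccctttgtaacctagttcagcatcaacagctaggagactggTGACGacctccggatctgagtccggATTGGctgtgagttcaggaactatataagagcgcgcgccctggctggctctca
Psmb9 to Tap1: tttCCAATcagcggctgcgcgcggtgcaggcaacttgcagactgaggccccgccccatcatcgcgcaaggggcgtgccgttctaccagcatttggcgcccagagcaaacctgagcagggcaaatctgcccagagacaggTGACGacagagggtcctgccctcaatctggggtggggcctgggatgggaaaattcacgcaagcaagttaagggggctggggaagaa

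In H2-K1 the response element, TGACG and CCAAT letters began 90, 41 and 16 bases before the start, in H2-D1 150, 101 and 76 with another CCAAT at 53, and in B2m 139, 78 and 53. The interval between Psmb9 and Tap1 held 1 TGACG and 1 CCAAT, not in that spacing, and neither form of the response element letters.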

How the data were processed

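The deposited table holds a signal value per gene and library, which the authors made from stranded poly(A) libraries: reads were aligned with STAR 2.7.5a to the mouse genome mm39 and counted on Mouse FAST DB v2021_2 (featureCounts 1.5.0 is named), and counts were divided by a DESeq2 size factor per library, with no scaling for gene length. The DESeq2 version is not given, and R was 3.5.3. These values are called normalized counts.

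Here a gene entered the tests if 3 or more libraries held 10 or more normalized counts (17875 genes), on log2(normalized count + 1), with limma 3.58.1 (trend) and all 18 libraries in 1 fit, with Benjamini-Hochberg adjustment over these genes. As alternatives, edgeR 4.0.16 and DESeq2 1.42.0 ran on whole read counts recovered from the normalized values, and limma ran with other scalings and with each library left out. Log ratios of subunits were compared by exact permutation. R 4.3.3 and Python 3.11 were used. Strands and exon lengths came from GENCODE vM39, and promoters from RefSeq. The members and lists were chosen with earlier results of these data known. The result for 1 further gene of the lists is not reported here.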

Additional observations from a re-analysis of the deposited data

Results flagged for a closer look

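These results are set apart because confinement changed the gene differently in KO and in WT cells, by the interaction test. The change in KO minus that in WT, on the log2 scale, was -1.60 for Nlrc5, -1.37 for Tap1, -0.98 for Psmb9, -0.75 for Tapbp and -0.71 for H2-K1. It was -0.67 for Tap2, -0.42 for H2-D1, -0.35 for Psmb8, -0.32 for Psmb10 and -0.28 for B2m.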

How the results depend on the processing

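Of 69 called log2 changes of the 10 genes, refitted 1374 times in all, 1352 refits kept call and direction, 20 lost the call and 2 reversed. Of 21 uncalled changes, refitted 336 times, 302 stayed, 7 gained a call and 27 reversed. The libraries come from 1 type of culture that holds several cell types, KO and sex make-up go together, LPS labels are in doubt, and times differ between LPS and confinement. The cause of the shifts below was not tested, except where fewer libraries leave a permutation test less room.

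With an absolute log2 change above 1 also required, confinement in WT left 0 members higher (11.4% of all genes) and 0 lower (7.62%), confinement in KO 0 higher (6.43%) and 1 lower (5.53%), the interaction 2 lower (6.56%), nonconfined KO against WT 0 higher (0.85%) and 0 lower (0.302%), confined KO against WT 2 lower (7.31%), LPS 5 higher (15.6%) and confined WT against LPS 3 lower (7.84%). At an unadjusted p of at most 0.05 and a 1.5-fold change, the numbers were 0 lower (16.2%) for WT, 0 higher (12.6%) for KO, 6 lower (10.8%) for the interaction, 0 higher (3.36%) and 0 lower (2.23%) for nonconfined KO against WT, and 6 lower (11.8%) for confined KO against WT. H2-K1, H2-D1, Tap1 and Nlrc5 still passed as higher in WT (18.3% of all genes), by 1.51-fold (H2-D1) to 1.87-fold (Nlrc5). Tap1, Tap2, Psmb8, Psmb9 and Nlrc5 still passed as lower in KO (11%), by 1.58-fold (Tap1) to 2.16-fold (Psmb9). TMM scaling left 0 higher for confinement in KO, and the same total made 1 lower under LPS.

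Under the same total, B2m in confined WT reversed to -0.0404 and Psmb8 under LPS to -0.17, and in nonconfined KO against WT Psmb8 reversed to -0.00183, Psmb9 to -0.0154 and Psmb10 to -0.0198. Between LPS labels, Tap1 reversed to -0.0137 under TMM and to -9.75e-05 in DESeq2, Tap2 to -0.00488 under TMM and Psmb8 to -0.0105 under TMM.

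With each library left out in turn, members called lower in confined WT ranged from 1 to 3, higher in confined KO from 0 to 1, and in nonconfined KO against WT from 0 to 2 higher and from 0 to 1 lower. In that comparison H2-K1 ranged from -0.0409 to 0.0187, Psmb9 from -0.00916 to 0.0686, Psmb10 from -0.0508 to 0.0899, the ratio of Psmb8 to Psmb5 from -0.0447 to 0.0251 and that of Psmb10 to Psmb7 from -0.0504 to 0.113. Between LPS labels H2-K1 ranged from -0.0516 to 0.00232, Tap1 from -0.0166 to 0.0265, Tap2 from -0.0283 to 0.0514, Tapbp from -0.0383 to 0.0046, Psmb8 from -0.0148 to 0.0255, Psmb9 from -0.0246 to 0.0232, the ratio of Psmb8 to Psmb5 from -0.0535 to 0.113 and that of Psmb9 to Psmb6 from -0.0397 to 0.0737. Against LPS, the ratios of Psmb8, Psmb9 and Psmb10 to their standard subunits ranged from -0.64 to -0.57, -0.58 to -0.53 and -0.75 to -0.71 in confined WT, and from -1.03 to -0.96, -1.10 to -1.04 and -0.87 to -0.78 in confined KO; these passed the threshold with 3 confined libraries and not with fewer.

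Blocking on the replicate number left the counts of members called unchanged. Correlations between libraries with the same number ran from -0.61 to 0.23 over 21 pairs of libraries and were over 0.1 in 4, so the numbers do not pair the libraries.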
